A study of Mus musculus with 18 samples.

Results

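Heat shock chaperones and cold-inducible RNA-binding proteins were followed through the lungs of mice exposed to a mixture of polycyclic aromatic hydrocarbons (PAHs). The set held 10 genes: Hspa1a, Hspa1b, Hspa8, Dnaja1, Dnajb1, Hsph1, Hsp90aa1 and Hspd1 on the heat shock side, and Cirbp and Rbm3 on the cold side. The genes were chosen from earlier measured values of these same arrays at the same doses, so their differences from vehicle are given as a description, without a test. Of the 10 genes, 9 had at least 1 probe, 15 probes in all, among 20660 named genes on the array. No probe on this array was matched to Hspa1b, and it was not analysed here.

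All 18 mice were male MutaTMMouse, a transgenic strain carrying a bacterial reporter gene for mutations, aged about 12 weeks. They were gavaged once a day over 28 days with olive oil alone (vehicle, 5 mice) or with the 4PAH-Mix in olive oil at 12.5 (low, 4 mice), 25 (medium, 5 mice) or 50 (high, 4 mice) mg BaP equivalents/kg-bw/day. The 4PAH-Mix held benzo[a]pyrene (BaP), benz[a]anthracene, benzo[b]fluoranthene and chrysene, and lungs were taken 72 h after the last dose. Lung RNA of a mouse (Cy5) shared its array with Universal Mouse Reference RNA (Cy3), pooled from mouse cell lines. Values below are log2 ratios of lung over reference after loess normalization within the array. Mice keep the numbers of their labels, and no number is shared between groups.

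Heat shock proteins are chaperones that bind unfolded proteins and help them fold or be degraded. When misfolded protein accumulates, the transcription factor HSF1 forms trimers, binds heat shock elements (inverted repeats of the letters GAA) and raises transcription of the inducible chaperones, which makes their mRNA a widely used readout of heat and of protein-folding stress. CIRBP and RBM3 carry an RNA recognition motif, and their mRNAs are known to rise under mild cooling, the opposite of the chaperones' behaviour.

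Promoter sequences are shown because the chaperones are the textbook targets of heat shock elements. RefSeq windows (build GRCm38.p6, 250 bases before to 50 after each annotated start) were found for 7 of the 10 genes. The other 3 are Hspa8, Hsp90aa1 and Rbm3. Each window was searched for a pair of facing units, GAANNTTC or TTCNNGAA, each of which reads the same on both strands, so that matches may overlap. A 30-base stretch around the first match upstream of the start is given 5′ to 3′ on the gene's strand, with the matched letters in capitals.
Hspa1a, chr17:34972242-34972271, minus strand: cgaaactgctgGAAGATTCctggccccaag
Hspa1b, chr17:34959324-34959353, minus strand: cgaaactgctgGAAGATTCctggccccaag
Dnaja1, chr4:40722333-40722362, plus strand: aaaagcctctaGAAAATTCtacgaggctcg
Hspd1, chr1:55088053-55088082, minus strand: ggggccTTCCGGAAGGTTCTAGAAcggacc
Hsph1, chr5:149636351-149636380, minus strand: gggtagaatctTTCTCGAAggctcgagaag

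The match began 104 bases before the start in Hspa1a and Hspa1b, whose windows differed at 4 of 300 bases. It began 124 bases before the start in Dnaja1, 144 bases before it in Hspd1, and 54 or 33 bases before it in Hsph1, by annotated start. Other windows of Dnaja1 and Hspd1 held no match. Hspd1 held 3 overlapping matches in a row. A pair of facing units was found in windows of 5 of the 6 heat shock genes with a window, Dnajb1 being without one, and in none of the 2 Cirbp windows. It was found in 15.1% of all 32851 windows and in 17.0% of 27025 genes. A run of 3 alternating units, GAANNTTCNNGAA or TTCNNGAANNTTC, which are each other's reverse complement and contain the pair, was in 0.603% of all windows and in 3 of 11 windows of the heat shock genes. These windows belonged to Hspd1 and Hsph1, and in Hsph1 the run lay after the annotated start. The Hsph1 windows overlapped and held the same run. By gene, such a run was in 2 of the 6 heat shock genes with a window and in 0.662% of 27025 genes. These are letter matches in short windows and not measured sites.

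The share of probes well above background in Cy5 ran from 52.9% to 62.1% over the arrays. All 15 probes of the set were well above background in both channels on all 18 arrays, and none was saturated. Markers of the lung's own cells were present: 5 of 5 alveolar type 2 genes and 4 of 4 measured alveolar type 1 genes were well above background on all arrays. In the limma fit over 55681 probes, the low, medium and high dose had 50, 404 and 670 called probes, a call needing a fold of 1.5 or more and an adjusted p not above 0.05. The median difference of all named genes was 0.01, 0.02 and 0.02 (log2) at the low, medium and high dose.

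All 7 measured heat shock genes had lower means than vehicle at each of the 3 doses. Their median log2 difference was -0.38 at the low dose (1.30-fold lower), -0.56 at the medium dose (1.48-fold) and -0.59 at the high dose (1.51-fold), against a mouse-to-mouse SD of 0.32 for the median of the 7 genes. Cirbp and Rbm3 had higher means than vehicle at each dose by their brightest probes, with a mean difference of 0.29, 0.36 and 0.33 and an SD between mice of 0.22. Lung RNA was measured in bulk, where fewer cells of a type and less RNA per cell cannot be told apart. Without low mouse 6 the heat shock median at the low dose was -0.60, and without vehicle mouse 2 it was -0.18.

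**Figure D1:**
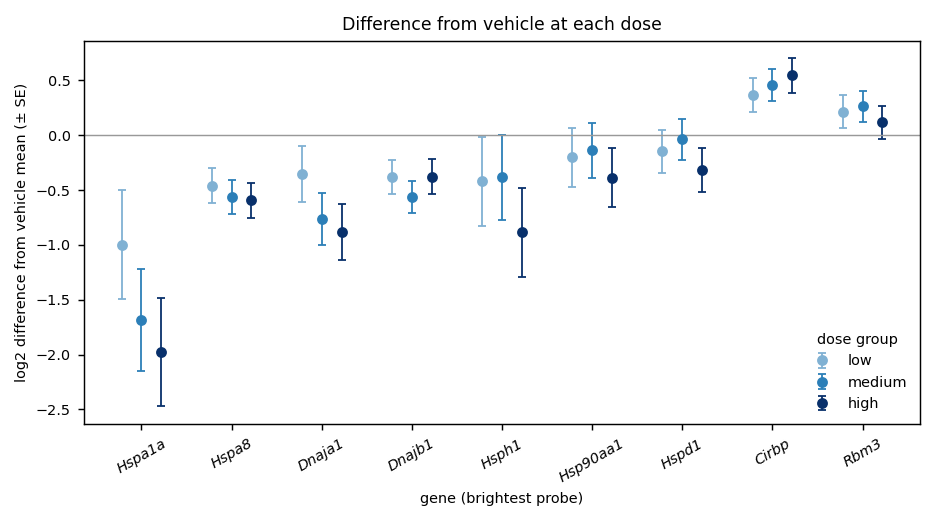
Log2 difference of each dose group's mean from the vehicle mean for the 9 measured genes, brightest probe of each, with the SE of the fit as bars. All 7 heat shock genes lie below 0 at the 3 doses and Cirbp and Rbm3 above it, and Hspa1a has the longest bars and the lowest points, down to -1.98 at the high dose.

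Hspa1a encodes the stress-inducible HSP70 of the cytosol and was the member with the widest range. The vehicle mice 1 to 5 had log2 ratios of 1.96, 3.43, 0.28, 2.81 and 1.24. The low-dose mice 6, 7, 9 and 10 had 2.62, -0.12, 0.22 and 1.07. Both of these groups were spread widely. Values at the medium dose were 0.41, 0.45, 0.07, -0.14 and 0.49 in mice 11 to 15. Those at the high dose were 0.35, -0.23, -0.11 and -0.15 in mice 16, 17, 18 and 20. The 9 mice of these upper doses sat together between -0.23 and 0.49, overlapping only vehicle mouse 3 of the controls. The group mean was 1.94 ± 1.25 (SD, n = 5) in vehicle, followed in dose order by 0.95 ± 1.22 (n = 4), 0.26 ± 0.28 (n = 5) and -0.04 ± 0.26 (n = 4). The differences of -0.997 (SE 0.49), -1.69 (SE 0.46) and -1.98 (SE 0.49) correspond to 2.00-, 3.22- and 3.95-fold lower ratios. Cy5 signals, without background subtraction, were low at the medium and high doses, from 155.5 to 373.5, against 199.5 to 2115 in vehicle. The median Cy5 signal of an array was 110 to 142. How far such low signals limited the ratios was not tested. Hspa1a and Hspa1b are near-identical copies, and since the probe's sequence was not used here, how much of Hspa1b it reads was not tested.

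Hspa8 encodes the constitutive HSP70 of the cytosol, abundant in unstressed cells. Its brightest probe read 0.94, 1.27, 0.59, 1.35 and 0.63 in the vehicle mice. The low-dose mice read 0.92, 0.21, 0.41 and 0.46. The medium-dose mice read 0.47, 0.53, 0.27, 0.16 and 0.55. All 5 of them lay below each vehicle mouse, and the share of named genes doing so at this dose was not computed. The high-dose mice read 0.70, 0.24, 0.39 and 0.13, and 3 of the 4 lay below each vehicle mouse. The differences were -0.46 (SE 0.16), -0.56 (SE 0.15) and -0.59 (SE 0.16). Its other probes gave -0.38, -0.44 and -0.52, and -0.19, -0.35 and -0.55, so the 3 probes shared one direction at each dose. From the Cy5 channel alone the high-dose difference was -0.24.

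Dnaja1 and Dnajb1 encode HSP40 co-chaperones, which hand clients to HSP70 and stimulate its ATPase. Dnaja1 read 1.04, 1.65, 0.27, 1.36 and 0.50 in vehicle and 1.40, 0.26, 0.22 and 0.57 at the low dose. It read 0.52, 0.39, -0.16, -0.09 and 0.35 at the medium dose and 0.48, 0.06, 0.02 and -0.23 at the high dose. The medium-dose mice overlapped vehicle mice 3 and 5, and 3 of 4 high-dose mice lay below all vehicle mice. Differences were -0.35 (SE 0.25), -0.76 (SE 0.24) and -0.88 (SE 0.25), and a second, much dimmer probe gave -0.18, -0.34 and -0.29.

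Dnajb1, a classic HSF1 target, did not have its lowest mean at the high dose. It read 0.36, 0.16, -0.26, 0.32 and -0.0047 in vehicle, 0.12, -0.40, -0.19 and -0.60 at the low dose, and 0.0019, -0.32, -0.56, -0.58 and -0.80 at the medium dose. At the high dose it read -0.18, -0.11, -0.31 and -0.46. Of the exposed mice, 4 of 5 at the medium dose lay below all vehicle mice, against 2 of 4 at each of the other doses. The differences were -0.38 (SE 0.16), -0.56 (SE 0.15) and -0.38 (SE 0.16).

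Hsph1 encodes HSP110, a nucleotide exchange factor for HSP70. Its brightest probe read 0.72, 1.85, 0.02, 1.1 and 0.52 in vehicle, 0.96, -0.28, -0.25 and 1.25 at the low dose, 0.64, 0.30, -0.30, -0.24 and 1.89 at the medium dose, and 0.63, -0.43, -0.14 and -0.24 at the high dose. The differences were -0.42 (SE 0.41), -0.38 (SE 0.38) and -0.89 (SE 0.41), and the second probe gave -0.36, -0.48 and -1.0. On the brightest probe 2 of 4 low-dose, 2 of 5 medium-dose and 3 of 4 high-dose mice lay below all vehicle mice, and 1 medium-dose mouse lay above them all.

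Hsp90aa1 encodes the inducible cytosolic HSP90, which matures kinases and steroid receptors. It ranged from 0.55 to 1.17 in vehicle, from 0.21 to 1.06 at the low dose, from 0.01 to 1.84 at the medium dose and from 0.11 to 0.87 at the high dose. Hspd1 encodes HSP60, the chaperonin of the mitochondrial matrix, and ranged from -0.92 to -0.27 in vehicle, -1.20 to -0.51 at the low dose, -1.13 to 0.11 at the medium dose and -1.19 to -0.71 at the high dose. By brightest probe, medium mouse 15 held the highest value of all 18 mice in Hsph1, Hsp90aa1 and Hspd1. It was not the highest in Hspa1a, Hspa8, Dnaja1 or Dnajb1. On the second Hsph1 probe it read 1.70, below vehicle mouse 2 at 1.80. Differences were -0.20, -0.14 and -0.39 for Hsp90aa1 (SE 0.27, 0.25 and 0.27) and -0.15, -0.04 and -0.32 for Hspd1 (SE 0.20, 0.19 and 0.20), the smallest of the heat shock genes at the low and medium doses. Without medium mouse 15 both were further below vehicle at the medium dose, at -0.42 for Hsp90aa1 and -0.25 for Hspd1. Other omissions turned the sign at that dose. Hsp90aa1 lay at 0.03 without medium mouse 13, and Hspd1 at 0.07 without vehicle mouse 2.

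**Figure D2:**
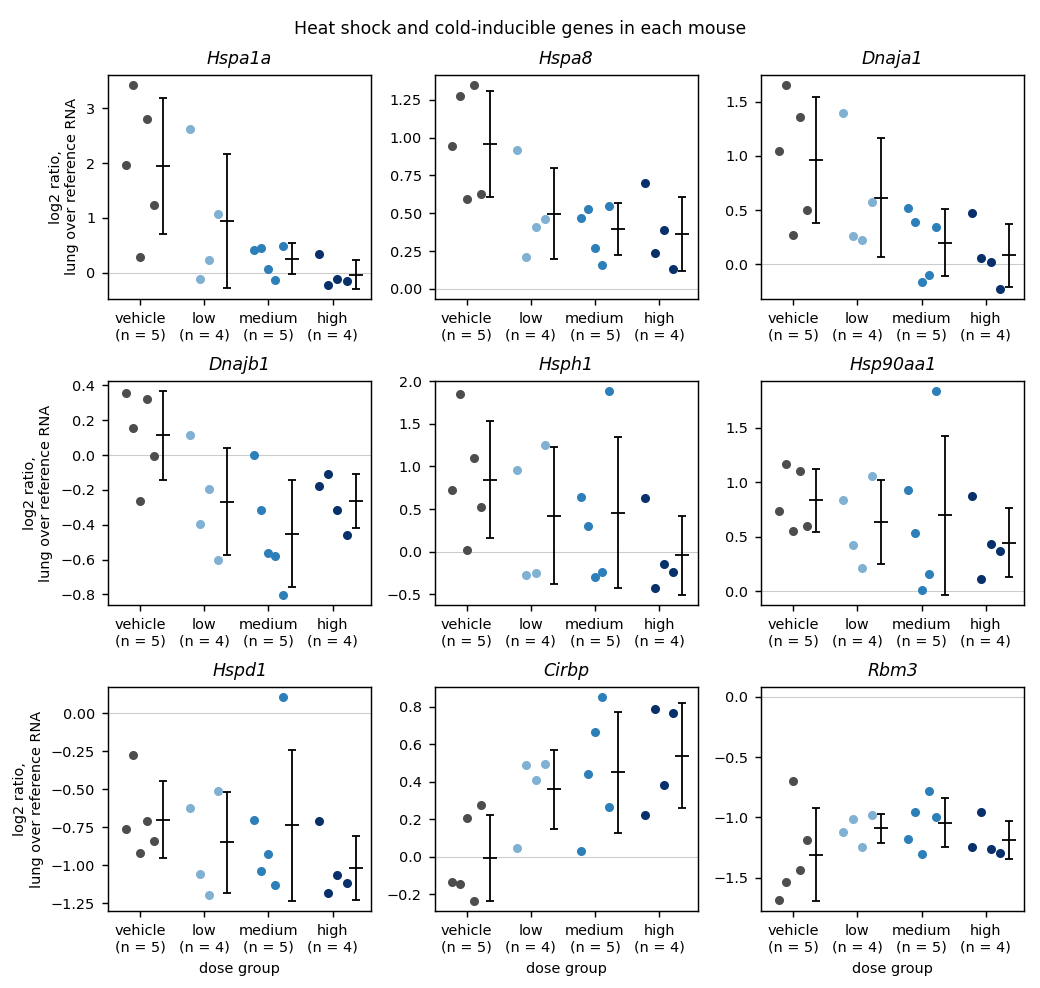
Log2 ratio of lung RNA over reference RNA (y axis) for each mouse by dose group (x axis), brightest probe of each of the 9 measured genes, with the group mean and SD as bars beside the points. In Hspa1a the vehicle mice run from 0.28 to 3.43 and the high-dose mice from -0.23 to 0.35, and in Hsph1, Hsp90aa1 and Hspd1 medium mouse 15 stands above the other medium mice.

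Cirbp, the cold-inducible RNA-binding protein that stabilises mRNAs and modulates clock transcripts, lay on the other side of vehicle. It read -0.14, -0.15, 0.21, -0.23 and 0.28 in vehicle. The low-dose mice read 0.05, 0.49, 0.41 and 0.49, the medium-dose mice 0.03, 0.44, 0.66, 0.85 and 0.27, and the high-dose mice 0.22, 0.79, 0.38 and 0.76. At each dose 3 mice lay above all vehicle mice, and the remaining ones lay within the vehicle range. The differences were 0.37 (SE 0.16), 0.46 (SE 0.15) and 0.55 (SE 0.16), or 1.29-, 1.37- and 1.46-fold higher.

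Rbm3, the other cold-inducible member, was read by 3 probes assigned to different RefSeq transcripts, and they did not share a direction. The brightest probe read -1.68, -1.54, -0.69, -1.43 and -1.19 in vehicle and -1.25, -0.95, -1.26 and -1.30 at the high dose, so the high-dose mice lay inside the vehicle range. Its differences were 0.22 (SE 0.15), 0.26 (SE 0.14) and 0.12 (SE 0.15), and those of the second probe were 0.17 (SE 0.14), 0.12 (SE 0.13) and -0.06 (SE 0.14). The dimmest probe, A_52_P280360, read 1.13, 0.96, 1.00, 1.05 and 1.01 in vehicle, 0.95, 0.88, 0.59 and 0.48 at the low dose, 0.83, 0.79, 0.51, 0.68 and 0.61 at the medium dose, and 0.47, 0.68, 0.42 and 0.68 at the high dose. All 13 exposed mice lay below all 5 vehicle mice on this probe, with differences of -0.30 (SE 0.10), -0.35 (SE 0.09) and -0.47 (SE 0.10). The closest were low mouse 6 at 0.953 and vehicle mouse 2 at 0.956, and the probe's Cy5 signals were only 171 to 384. The share of all probes with such a separation over the 3 doses was not computed, so nothing is read from it. The mean of all probes put Rbm3 at -0.14 at the high dose, so its direction there depended on the probes used.

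**Figure D3:**
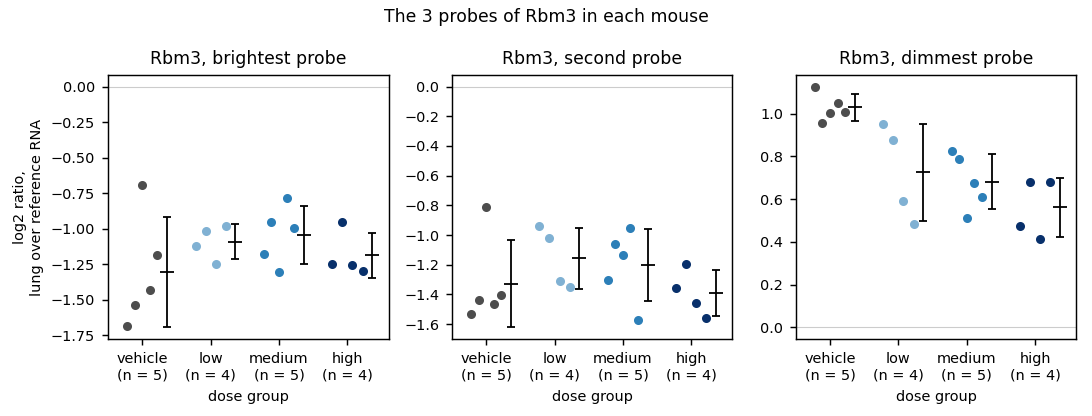
Log2 ratio of lung over reference RNA (y axis) for the 3 Rbm3 probes, from the brightest to the dimmest, in each mouse by dose group (x axis), with mean and SD as bars. The exposed mice overlap the vehicle mice on the first 2 probes, and on the dimmest probe the high-dose mice read 0.42 to 0.68 against 0.96 to 1.13 in vehicle.

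By the calling rule, no heat shock gene was called lower at the low dose (background 0.0436% of named genes), Hspa1a was called at the medium dose (background 0.431%), and Hspa1a and Hspa8 were called at the high dose (background 0.774%). Neither Cirbp nor Rbm3 was called higher at any dose, where 0.116%, 0.503% and 0.736% of named genes were. No member had all 4 high-dose mice below all vehicle mice, as 4.55% of named genes had, and none had all 4 above, as 6.16% had, each by the brightest probe. Because these contrasts served to choose the members, nothing is read from the counts. They also shifted with single mice: without vehicle mouse 2, vehicle mouse 4 or high mouse 17, 18 or 20 no member was called at the high dose, and without vehicle mouse 3 or vehicle mouse 5 the count was 4. At the medium dose no member was called without vehicle mouse 1, 2 or 4 or low mouse 10. The same held without medium mouse 12, 13 or 14 or high mouse 16, 17, 18 or 20. Without medium mouse 11 only Dnajb1 was called at that dose, and without medium mouse 15 only Hspa8.

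The high-dose mean lay below the low-dose mean by 0.98 (SE 0.52) for Hspa1a, 0.53 (SE 0.27) for Dnaja1 and 0.47 (SE 0.43) for Hsph1, each on the log2 scale. For Hspa8 it lay below by 0.13 (SE 0.17) and for Dnajb1 the 2 means differed by 0.0035 (SE 0.16). Cirbp was 0.18 (SE 0.17) higher at the high than at the low dose. Adjacent doses overlapped in each of these genes.

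Mouse-to-mouse spread within a dose group was large for these genes. They were chosen from measured values of these arrays, and a wide spread makes large differences between group means likelier. The ranks of spread are therefore a description. The pooled SD within groups was 0.89 for Hspa1a, 0.74 for Hsph1, 0.48 for Hsp90aa1, 0.45 for Dnaja1 and 0.35 for Hspd1 (log2), against a median of 0.15 over 13460 genes well above background on all arrays. Hspa1a exceeded 99.8%, Hsph1 99.6%, Hsp90aa1 98.4%, Dnaja1 98.0% and Hspd1 95.1% of those genes. Hspa8, Dnajb1, Cirbp and Rbm3 had SDs from 0.25 to 0.28, above 86.1% to 89.5% of the genes. In Hspa1a the spread was uneven: the SD was 1.25 in vehicle and 1.22 at the low dose, against 0.28 and 0.26 at the upper doses. The upper-dose Cy5 signals were low (155.5 to 373.5, array medians 110 to 142), and whether this narrowed their spread was not tested.

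Within a dose group the heat shock genes tended to be high or low in the same mice. Over 18 mice, deviations from the group mean correlated between Hspa8 and Hsph1 with Pearson's r of 0.73 and Spearman's rho of 0.81 (permutation test within groups, 100000 resamples, two-sided, Benjamini-Hochberg adjusted p = 0.0016 and 0.00065 over 5 pairs). Without the 2 mice farthest from the median of Hspa8, r was 0.77, and over all 18 mice with slide means removed besides group means it was 0.90. Within slide 1 (8 mice) and slide 2 (6 mice) r was 0.91 and 0.93, and slide 3 held too few mice. Hspa1a and Dnajb1 gave r = 0.53 and rho = 0.48 (permutation test, adjusted p = 0.052 and 0.079), which dropped to r = 0.075 without low mouse 6 and vehicle mouse 3, so this relation rests on those mice. It was also a pair added after the data were seen. As a description, the 21 pairs of heat shock genes had a median r of 0.62, from -0.12 to 0.95, and the 2 negative pairs were those of Dnajb1 with Hsp90aa1 and Hspd1. Hspa1a, Hspa8 and Dnaja1 formed a tight trio (r from 0.89 to 0.94), and so did Hsph1, Hsp90aa1 and Hspd1 (r from 0.93 to 0.95).

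Cirbp tended to be low in the mice whose chaperones were high. Hsph1 and Cirbp gave r = -0.64 and rho = -0.68 (permutation test, adjusted p = 0.020 and 0.0066), and r was -0.66 without medium mouse 15 and vehicle mouse 2. Hspa1a and Cirbp gave r = -0.64 and rho = -0.75 (permutation test, adjusted p = 0.0016 and 0.00065), and r was -0.55 without low mouse 6 and vehicle mouse 3. This pair was added after the data were seen, so its p values are a description and no independent test. Within slide 1 and slide 2 the values were -0.69 and -0.88 for Hsph1 with Cirbp, and -0.55 and -0.60 for Hspa1a with Cirbp. Cirbp and Rbm3 gave r = 0.49 and rho = 0.50, which did not pass the adjustment (permutation test, adjusted p = 0.052 and 0.070). The negative relations depended on the within-array normalization. With each array centred on its median in place of loess, Hsph1 with Cirbp turned to r = 0.29 (permutation test, adjusted p = 0.352, against 0.0015 to 0.352 over 27 alternatives), Hspa1a with Cirbp weakened to -0.14, and the median over the 14 pairs of a heat shock with a cold-inducible gene turned from -0.54 to 0.38. The median r of the heat shock pairs was 0.80 under that centring.

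**Figure D4:**
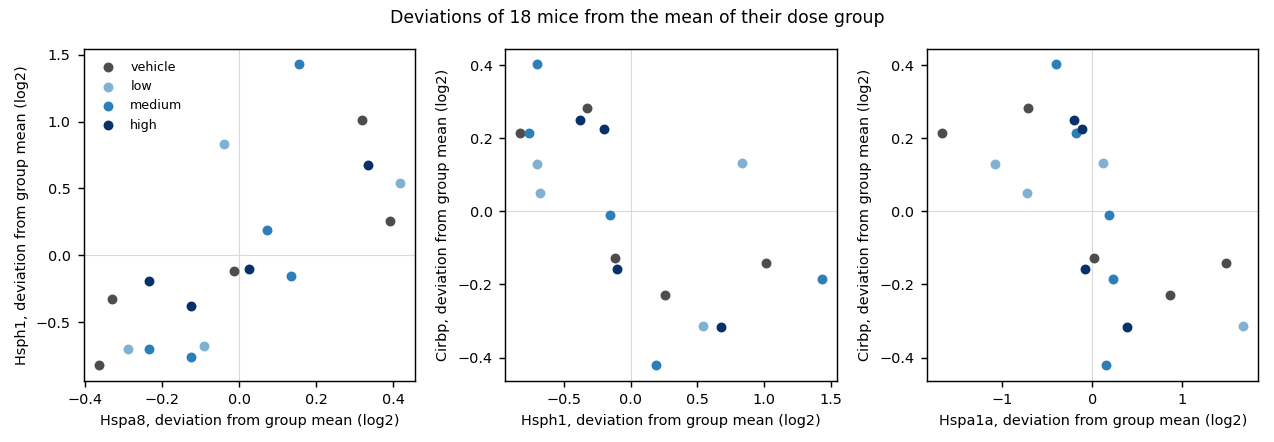
Deviation of each of 18 mice from the mean of its dose group (log2) for Hspa8 and Hsph1, Hsph1 and Cirbp, and Hspa1a and Cirbp, coloured by dose group, after loess. Points rise from left to right in the first panel (r = 0.73) and fall in the other panels (r = -0.64 in each).

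**Figure D5:**
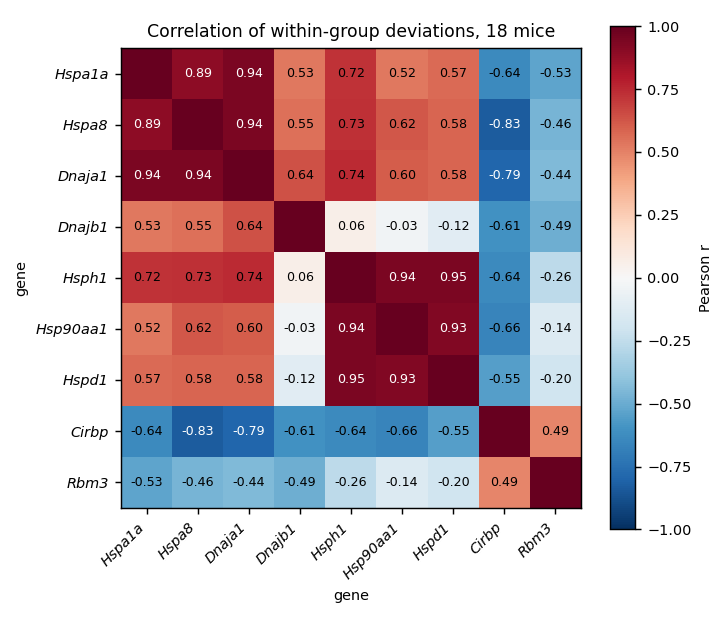
Pearson r of the within-group deviations for each pair of the 9 measured genes over 18 mice, after loess, with colour from -1 (blue) to 1 (red). Hspa1a, Hspa8 and Dnaja1 form one block (r from 0.89 to 0.94), Hsph1, Hsp90aa1 and Hspd1 another (r from 0.93 to 0.95), and the rows of Cirbp and Rbm3 are negative against all 7 heat shock genes.

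Other genes that followed the chaperones from mouse to mouse were ranked, as a description, by r of their within-group deviations with the mean of the 7 heat shock genes over 18 mice, among 13427 genes well above background. The highest were Cacybp (0.94), Chordc1 (0.93), Slc5a3 (0.90), P4ha1 (0.88) and Mkks (0.86). Chordc1 and Cacybp encode partners of the HSP90 machinery, Slc5a3 an inositol transporter of the osmotic response, P4ha1 a collagen prolyl hydroxylase, and Mkks a chaperonin-like protein. Of the first 20 genes, 8 stood on the chaperone and RNA-binding lists, which held 0.678% of the genes ranked. Besides Cacybp and Chordc1 these were Hspb8 (0.85), Hspb1 (0.83), Hspa4l (0.82), Ahsa1 (0.82), St13 (0.81) and Stip1 (0.81). The differences of these most alike genes from vehicle were not of one size. At the high dose Slc5a3 differed from vehicle by -0.57, Chordc1 by -0.43, Cacybp by -0.36 and P4ha1 by -0.12. Mkks (-0.27), Hspb1 (-0.46), Stip1 (-0.44), Hspa4l (-0.29), Ahsa1 (-0.27) and St13 (-0.24) lay below vehicle as well. Hspb8 alone of these genes lay above it, at 0.17 (SE 0.10). The lowest r were those of Hhat (-0.83), Chmp4b (-0.81), Ehbp1l1 (-0.81), Tkt (-0.81) and Sema4a (-0.81). These 5 turned to between 0.13 and 0.45 under median centring, whereas the 5 highest stayed positive in each normalization tried.

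Beyond the 10 genes, 97 further chaperone and RNA-binding genes were measured, from 98 on 9 lists. None was called at any dose under the rule with the fold limit (limma, adjusted over 55681 probes). Counted at an unadjusted p under 0.05, 13, 26 and 22 of the 97 differed at the low, medium and high dose, where 9.26%, 19.7% and 20% of all named genes did. Without the fold limit, 0, 6 and 3 of the 97 passed an adjusted p of 0.05 at the low, medium and high dose, against 0.247%, 4.82% and 5.61% of all named genes. Of the 97, 54, 53 and 57 had means below vehicle, with medians of -0.02, -0.03 and -0.04, close to the median of all named genes. The 7 heat shock genes of the set had medians of -0.38, -0.56 and -0.59 at the same doses.

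The HSP40 list held the largest single difference. Dnajb4, an HSP40 of the DNAJB class, fell by 0.51 on the log2 scale at the high dose (SE 0.11, limma adjusted p = 0.0071) and by 0.43 at the medium dose (SE 0.10, adjusted p = 0.019). All 4 high-dose mice lay below all vehicle mice, as in 4.55% of named genes. Dnajc21, a ribosome biogenesis factor, fell by 0.39 at the medium dose (SE 0.09, limma adjusted p = 0.011). Dnajc8, a splicing-associated J protein, rose by 0.46 at that dose (SE 0.11, adjusted p = 0.019) and Dnajb12, a J protein of the ER membrane, by 0.27 (SE 0.07, adjusted p = 0.029). The list of 12 measured genes had 7 below and 5 above vehicle at the high dose.

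Among the other lists, Pdia3, a disulfide isomerase of the endoplasmic reticulum (ER), fell by 0.42 at the high dose (SE 0.11, limma adjusted p = 0.038) and by 0.39 at the medium dose (SE 0.11, adjusted p = 0.046). Rbm14, an RNA-binding coactivator, fell by 0.34 at both of these doses (SE 0.08, limma adjusted p = 0.021 at the high and 0.018 at the medium dose). ER chaperones as a list were below vehicle in 12 of 15 genes at the high dose, median -0.21, with Hspa5 (BiP, the ER HSP70) at -0.44 (SE 0.15, adjusted p = 0.126). Bag3, an HSP70 nucleotide exchange factor of selective autophagy, had a difference of -0.50 at the high dose (SE 0.15, limma adjusted p = 0.065), with 4 of 4 mice below all vehicle mice. That separation held for 4.55% of named genes, and among listed genes also for Pdia3, Chordc1, Dnajc5, Lonp1 and Hsf5. Dnaja2 and Dnajb12 had all 4 high-dose mice above all vehicle mice, as 6.16% of named genes had. Nothing is read from it.

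The remaining lists held no gene that passed. Their largest high-dose differences were -0.46 (SE 0.28, limma adjusted p = 0.482) for the small heat shock protein gene Hspb1, -0.29 (SE 0.23, adjusted p = 0.621) for the HSP110 relative Hspa4l, and -0.24 (SE 0.09, adjusted p = 0.126) for Hsf5, which was well above background on 0 of 18 arrays. In the mitochondrial list Trap1 differed by 0.20 (SE 0.10, limma adjusted p = 0.334) and in the TRiC chaperonin list Tcp1 by 0.13 (SE 0.10, adjusted p = 0.589). Hsf1 itself, the heat shock transcription factor, differed by -0.11 at the high dose (SE 0.09, limma adjusted p = 0.627).

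Other gene groups also differed between vehicle and exposed mice. All 8 clock output genes had higher means at each dose, with medians of 0.84, 0.88 and 1.01 and list means in exposed mice (0.52 to 1.30 above the vehicle mean) that did not overlap those of the vehicle mice (-0.41 to 0.33). The 3 clock activators had lower means at each dose, with medians of -0.52, -0.47 and -0.42. The low- and medium-dose medians were those of Npas2, which was well above background on only 7 of 18 arrays. B cell markers had medians of 0.49, 0.62 and 0.49, with 5, 5 and 4 of 5 genes above vehicle. T and NK markers stood at -0.42 at the high dose, with list means of -0.94 to -0.50 against -0.49 to 0.32 in vehicle, 4 of 5 genes being lower. Gzma was furthest from vehicle at -2.25, followed by Nkg7 at -0.46 and Klrb1c at -0.42. Klrb1c was well above background on 13 of 18 arrays. The T cell receptor genes Cd3e and Cd3d were at -0.19 and 0.08. Cardiomyocyte markers, from muscle sleeves of the pulmonary veins, had list means from -1.73 to 1.38 in vehicle and -1.67 to 1.39 at the high dose. Medians of the other 8 lists (alveolar type 1 and 2, club, ciliated, endothelial, alveolar macrophage, neutrophil and immediate early genes) lay between -0.46 and 0.19. The part of these groups in the chaperone differences was not tested.

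The arrays lay on 3 slides, each with mice from the 4 groups. Dose groups kept to their own column of the slide, so column and dose cannot be told apart. With slide as a block, the high-dose differences were -2.06 for Hspa1a, -0.61 for Hspa8 and 0.57 for Cirbp, and Dnaja1 was called as well at the medium and the high dose. Within slides, the heat shock genes lay below the vehicle mice of their own slide in 17, 18 and 21 of 21 values for the low, medium and high dose. Cirbp and Rbm3 lay above in 5, 5 and 4 of 6 values. The 7 exceptions on the heat shock side all came from slide 3, where Hsph1, Hsp90aa1 and Hspd1 were 1.37, 1.24 and 0.95 above vehicle at the medium dose, a comparison of medium mouse 15 with vehicle mouse 5.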

How the data were processed

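Lung RNA of 18 mice was measured on 18 two-colour Agilent arrays with a common reference and no dye swap. For each array, the authors deposited the median Cy5 and Cy3 signal intensity of each spot as written by Agilent Feature Extraction 11.0.1.1 (per the file headers), and a log10 ratio that this software had background-subtracted and dye-normalized. They also deposited a table of log2 ratios, found to match loess-normalized log2 ratios of Cy5 over Cy3 (r of at least 0.995 on each array), with array medians from -0.03 to -0.02.

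Median intensities were taken without background subtraction and normalized by loess within each array (R 4.3.3, limma 3.58.1). Outlier spots (215 to 307 per array) and control spots were excluded, and replicate spots of a probe averaged. Accessions of 27235 of 55681 probes were matched to genes through a RefSeq table of GRCm38.p6, used for names. The brightest probe stands for a gene with several. All 4 groups were fitted with limma, which replaces the study's MAANOVA, with Benjamini-Hochberg adjustment over all probes. Mice are separate animals, and precision is limited by how many arrays there are.

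The members, gene lists and tests were chosen with earlier results of these data known. Genes named are all members, listed genes called at any dose, the largest high-dose difference of each list, the 5 genes most and the 5 least like the heat shock mean, and, named after their values were seen, listed genes passing without the fold limit, listed genes among the first 20 by likeness, Hsf1 and Pdia3. The correlation tests and the fit were tested on simulated data. Of 6 planned pairs, 3 involved Hspa1b and could not be computed. Hspa1a with Dnajb1 and with Cirbp were added after seeing the data. Alternatives were normexp background correction (offset 50), the authors' table, median centring, the ratios of the scanner software, scale and Aquantile normalization, Cy5 alone, slide as a block, probes well above background, the compared groups alone, the mean of all probes, no fold limit, and each mouse left out.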

Additional observations from a re-analysis of the deposited data

Results flagged for a closer look

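Among 36 groups of mice (9 genes by 4 groups), 1 held a value far from the others. In the high-dose mice Rbm3 read -0.952 in mouse 17, against -1.25 in the nearest and -1.30 in the farthest of the other mice (log2 ratio, brightest probe), a gap of 0.863 of the whole range. Chance marks about 1 in 20 groups.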

How the results depend on the processing

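The median difference of the heat shock genes kept its sign at each dose under 27 alternatives, from -0.60 to -0.18 at the low, -0.65 to -0.30 at the medium and -0.70 to -0.28 at the high dose, and so did the mean of Cirbp and Rbm3, from 0.20 to 0.40, 0.24 to 0.52 and 0.21 to 0.55. Single genes were less stable. At the medium dose Hspd1 kept its sign in 19 and Hsp90aa1 in 25 of the 27. At the high dose Rbm3 ran from -0.14 to 0.35, against 0.46 to 0.74 for Cirbp. Aquantile leaves ratios as they are and is no separate check of them. No member was called at the low dose under 30 alternatives. At the medium dose 1 member was called, against 0 with the scanner software's ratios, median centring, scale normalization, Cy5 alone or the mean of all probes, 2 (Hspa1a and Dnaja1) with slide as a block or probes well above background, and 3 without the fold limit. At the high dose 2 were called, against 0 with the scanner software's ratios or median centring and 1 with the authors' table, scale normalization, Cy5 alone, the compared groups alone or the mean of all probes, and 3 (Hspa1a, Hspa8 and Dnaja1) with normexp, slide as a block or probes well above background. Leaving out 1 mouse gave 0 to 4 called members at either of these doses. Called probes in dose order numbered 33, 696 and 1075 with the scanner software's ratios, 3, 32 and 80 with median centring, and 93, 1969 and 2325 without the fold limit. Among the other listed genes, 1 (Dnajb4) was called at the high dose with the scanner software's ratios, 6 (medium dose) and 3 (high dose) were called without the fold limit, and 0 to 1 (Hspa5, without high mouse 16) when mice were left out.

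Among the within-group correlations, Hspa1a with Dnajb1 passed the threshold at r = 0.52 with the scanner software's ratios, 0.54 with the authors' table, 0.54 with scale normalization and 0.53 with Cy5 alone, and ran from 0.37 to 0.61 without single mice. Cirbp with Rbm3 passed at 0.84 with median centring and 0.57 with scale normalization, and ran from 0.41 to 0.61. Hsph1 with Cirbp was 0.29 with median centring, reversed from the loess value, and ran from -0.74 to -0.59, missing the threshold at -0.60 without high mouse 16. Hspa1a with Cirbp was -0.14 with median centring. Under that centring the likeness to the heat shock mean also reversed, to 0.43 for Sema4a, 0.42 for Tkt, 0.45 for Ehbp1l1, 0.41 for Chmp4b and 0.13 for Hhat, as did the median r of heat shock with cold-inducible genes, to 0.38. The cause was not tested. No paired analysis was possible because the groups share no replicate numbers, and slide, which held mice of all 4 groups, was fitted as a block in its place.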
